A study of Homo sapiens with 6 samples.

Results

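Genes for 9 lymphocyte adhesion molecules were followed by RNA sequencing in SU-DHL-8, a human cell line derived from a diffuse large B-cell lymphoma. They were the integrin subunit genes ITGA4, ITGAL, ITGB1, ITGB2 and ITGB7, the intercellular adhesion molecule genes ICAM1, ICAM2 and ICAM3, and SELPLG. The genes were taken by symbol from 65746 symbols in the count table, and all 9 were listed there. Cells labelled wild type had been given 100 nM erianin, a bibenzyl from Dendrobium orchids described as a tubulin ligand, or DMSO as vehicle, and RNA was collected after 24 h. Each arm had 3 libraries numbered as replicate experiments. Whether the cultures were separate is not stated in the labels. The p-values therefore measure only how far these libraries scatter, and some of that scatter may be technical.

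Integrins are pairs of an alpha and a beta subunit that hold a lymphocyte to other cells or to matrix. ITGAL and ITGB2 encode the pair known as LFA-1, whose ligands are the ICAM proteins. ITGA4 pairs with ITGB1, a receptor for VCAM1 and fibronectin, or with ITGB7, a gut-homing receptor for MADCAM1. SELPLG encodes PSGL-1, a mucin that binds selectins once it carries particular sugars and sulfates. Integrins are switched on from inside the cell by talin and kindlin, which bind the beta tail, and are then tied to actin. Levels below are CPM, counts relative to library size with TMM scaling between libraries, unless given as TPM. The deposited TPM is also scaled to a length per gene. It was used where genes were compared with each other, unless CPM is named.

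Total counts ran from 30956443 to 35588728 per library, and 3 counts, taken as the floor, equalled 0.084 to 0.097 CPM before TMM scaling. A single library, DMSO replicate 1, did not resemble the rest. Among 11550 tested genes, 33.6% differed more than 1.5-fold between it and the mean of DMSO replicates 2 and 3, against 5.50% between DMSO replicates 3 and 2. Its deviation followed GC content across all genes, from a median of 0.36 on the log2 scale in genes of at most 40% GC to -0.55 in genes above 60% GC. B-cell markers summed to 2704 to 3729 CPM with DMSO and 2288 to 2560.5 CPM with erianin. All 7 were tested, and 1 (CD79A) was called higher and 2 (CD79B and PAX5) lower. T-cell, endothelial and fibroblast markers stayed at or below 8 counts for any gene and library. Monocyte markers summed to 4.83 to 7.73 CPM with DMSO and 9.44 to 10.9 CPM with erianin, 2 of 4 tested (CD14 and CSF1R) were called higher and FCN1 was at 0. Natural killer markers summed to 1.87 to 5.97 and 4.88 to 5.77 CPM in the same order, with NCR1 at 0. The part of these markers in the results was not tested. In bulk RNA such as this, fewer cells of a type and less RNA per cell cannot be told apart.

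Which adhesion transcripts changed with the compound was asked by setting erianin against DMSO. None of the 8 adhesion genes with enough reads for the test was called with all 6 libraries, at an adjusted p under 0.05 in edgeR's quasi-likelihood test. At an unadjusted p under 0.05 edgeR also found 0 of 8. DESeq2 and limma-voom called 0 of 8 as well, with 3 and 1 at an unadjusted p under 0.05. Of all 11550 tested genes, DESeq2 called 1746 higher and 1897 lower, and limma-voom 1401 and 1361. The share of all genes at an unadjusted p under 0.05 is not given here. In the edgeR fit 24.2% of all tested genes were called, 11.8% higher and 12.3% lower. The median log2 fold change of the 8 genes was 0.11. In simulated counts, with 100 genes changed 2-fold and 100 changed 1.5-fold among 11550, the test recovered 66% and 6% of them. It made 77 calls there against 2791 in the data, so the adjusted p was stricter in the simulation. These shares therefore do not give the share of changes found in the data. Changes of 1.5-fold or less may still be missed with all 6 libraries. Without DMSO replicate 1, ITGA4 and SELPLG rose and ICAM2 fell, 37.5% of the 8 genes, whose median log2 fold change was 0.02. In that fit 55.3% of the 11773 tested genes were called, 27.8% higher and 27.4% lower.

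**Figure D1:**
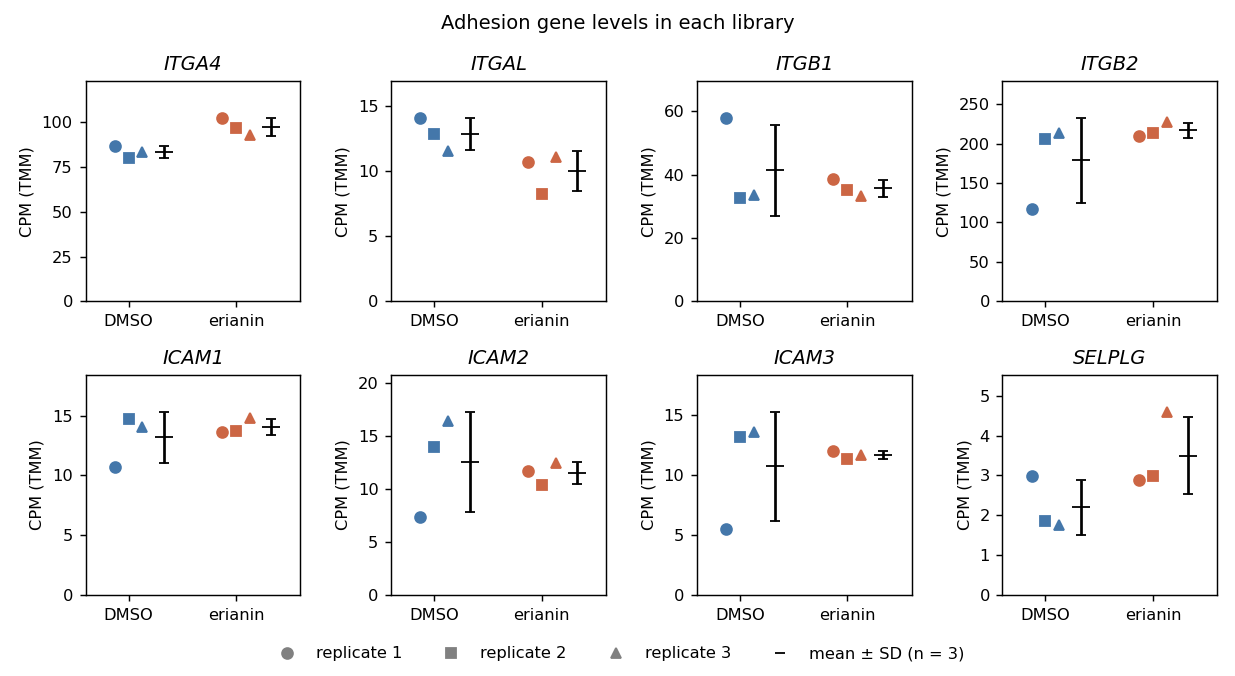
Levels of the 8 tested adhesion genes (y axes, CPM with TMM scaling, from 0) in the 3 DMSO and 3 erianin libraries (x axes). Points are libraries, with the shape giving the replicate number, and bars are the mean ± SD (n = 3). DMSO replicate 1 (circle) lies apart from the other DMSO libraries for ITGB1, ITGB2, ICAM1, ICAM2, ICAM3 and SELPLG, while ITGA4 and ITGAL have groups that do not overlap.

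The alpha subunit gene ITGA4 (ENSG00000115232, chromosome 2, 181457202 to 181536187, plus strand) had 86.9, 80.3 and 83.4 CPM in DMSO replicates 1 to 3. With erianin it had 103, 96.8 and 92.9 CPM. Every erianin library lay above every DMSO library, and DMSO replicate 1 was the highest of the DMSO libraries by a small margin. The mean was 83.5 ± 3.30 with DMSO and 97.4 ± 4.89 with erianin (SD, n = 3). The log2 fold change of ITGA4 was 0.22 ± 0.10 (SE), adjusted p = 0.14. ITGA4 rose by 0.26 ± 0.07 without DMSO replicate 1, adjusted p = 0.0019. Its 95% interval there ran from 0.12 to 0.40.

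ITGAL, the LFA-1 alpha subunit gene (ENSG00000005844, chromosome 16, 30472658 to 30523185, plus strand), had 14.1, 12.8 and 11.6 CPM with DMSO and 10.7, 8.26 and 11 CPM with erianin. The erianin libraries all lay below the DMSO libraries, but DMSO replicate 3 and erianin replicate 3 were close together. Its log2 fold change was -0.36 ± 0.16, adjusted p = 0.13, and -0.27 ± 0.12 without DMSO replicate 1, adjusted p = 0.066. ITGA4 and ITGAL were the 2 of 8 genes whose groups did not overlap, and 46.8% of all tested genes had groups that did not overlap. Without DMSO replicate 1 the groups did not overlap for 5 of 8, which added ICAM2, ICAM3 and SELPLG, against 68.9% of all tested genes.

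Among the beta subunit genes, ITGB2 (ENSG00000160255, chromosome 21, 44885953 to 44931989, minus strand) had 117, 206 and 214 CPM with DMSO. With erianin it had 209.6, 213 and 227 CPM. DMSO replicate 1 was the only low library, and the other 5 formed 1 narrow range. The log2 fold change was 0.28 ± 0.22, adjusted p = 0.40, and 0.06 ± 0.06 without DMSO replicate 1, adjusted p = 0.44, with a 95% interval of -0.07 to 0.18. When the fit used GC content and length offsets and left out DMSO replicate 1, ITGB2 was called higher (0.15 ± 0.04, adjusted p = 0.0010).

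ITGB1 (ENSG00000150093, chromosome 10, 32900319 to 33005792, minus strand), which pairs with many alpha subunits, had 58.0, 32.6 and 33.5 CPM with DMSO. Its levels with erianin were 38.5, 35.2 and 33.4 CPM. Here DMSO replicate 1 was the highest library, opposite to ITGB2. The log2 fold change was -0.21 ± 0.23, adjusted p = 0.54, and it turned to 0.12 ± 0.08 without DMSO replicate 1, adjusted p = 0.21.

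ITGB7 (ENSG00000139626, chromosome 12, 53191318 to 53207307, minus strand) was near zero. It had 0, 5 and 2 counts in DMSO replicates 1 to 3 and 4, 0 and 2 counts in erianin replicates 1 to 3, too few for the test. In GENCODE 29, 1886 of its 4481 exonic bases (42.1%) are shared with exons of ZNF740 on the opposite strand, which had 1923 to 3712 counts. How the counting treated strand is not given in the sources used here, so reads from the shared bases may have been left out or counted for ZNF740.

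The ICAM genes encode immunoglobulin-family ligands of LFA-1. ICAM1 (ENSG00000090339, chromosome 19, 10270835 to 10286615, plus strand) is known to be induced through NF-kappaB, and its promoter is shown because it carries a known form of the kappaB site upstream of a TATA box. RefSeq promoters (GRCh38.p14, from 250 bases before to 50 bases after a start) were found for 5 of the 9 genes, ITGA4, ITGB1, ITGB7, ICAM1 and ICAM3, in 8 entries. The kappaB letters searched on both strands were GGAAATTCC, which 0.46% of 35116 promoters held, and the TATA letters were TATAAA, which 11.5% held. Capitals mark the matches, at positions -186 to -178 and -30 to -25 from the RefSeq start, where -1 is the base before it. The windows are chr19:10270924-10270952 and chr19:10271078-10271107, plus strand, and lie inside the longer gene model of GENCODE 29.
ICAM1 kappaB window: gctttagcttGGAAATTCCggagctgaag
ICAM1 TATA window: ggtggctagcgcTATAAAggatcacgcgcc
Of the 8 entries, ICAM1 alone held these exact kappaB letters, and other forms of the site were not searched. The TATA letters were also found in ITGB1. A match is a description of the sequence and not a bound site.

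With DMSO, ICAM1 had 10.7, 14.8 and 14.1 CPM. Its erianin libraries had 13.6, 13.7 and 14.8 CPM, from just below to just above DMSO replicates 2 and 3. The low library was again DMSO replicate 1. The log2 fold change was 0.09 ± 0.15, adjusted p = 0.70, and -0.02 ± 0.10 without DMSO replicate 1, adjusted p = 0.86. The 95% interval of the latter was -0.23 to 0.18. GENCODE 29 places 815 of 3706 exonic bases of ICAM1 (22.0%) under an antisense gene.

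ICAM2 (ENSG00000108622, chromosome 17, 64002594 to 64020634, minus strand), expressed constitutively on leukocytes and endothelium, had 7.32, 14.0 and 16.4 CPM with DMSO. The erianin libraries had 11.7, 10.4 and 12.4 CPM, above DMSO replicate 1 and below DMSO replicates 2 and 3. The log2 fold change was -0.13 ± 0.28, adjusted p = 0.77. Without DMSO replicate 1, ICAM2 fell by 0.39 ± 0.11 (SE), adjusted p = 0.0045. PRR29 on the opposite strand, at 45 to 151 counts, shares 26.8% of the exonic bases of ICAM2.

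ICAM3 (ENSG00000076662, chromosome 19, 10333776 to 10339823, minus strand), the ICAM of resting leukocytes, had 5.48, 13.1 and 13.6 CPM with DMSO and 12, 11.4 and 11.7 CPM with erianin. As for ICAM2, the erianin libraries lay above DMSO replicate 1 and below DMSO replicates 2 and 3. Its log2 fold change was 0.12 ± 0.31, adjusted p = 0.81, and it turned to -0.18 ± 0.10 without DMSO replicate 1, adjusted p = 0.15. An antisense gene covers 71.2% of its exonic bases in GENCODE 29 and could not be matched to a row of counts by its identifier.

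SELPLG (ENSG00000110876, chromosome 12, 108622277 to 108633959, minus strand) had 2.99, 1.85 and 1.76 CPM with DMSO, from 91, 60 and 60 counts. With erianin it had 2.89, 2.97 and 4.60 CPM, from 106, 103 and 161 counts. DMSO replicate 1 lay among the erianin libraries, and erianin replicate 3 was higher than the rest. The log2 fold change was 0.67 ± 0.29, adjusted p = 0.13. Without DMSO replicate 1 it rose by 0.96 ± 0.23, adjusted p = 0.0010, the largest change of the 8 genes in that fit. Leaving out erianin replicate 3 alone gave 0.42, adjusted p = 0.38. SELPLG was also called higher on the log2(TPM + 1) scale (0.67, adjusted p = 0.036). That scale sets DMSO replicate 1 against the other libraries although its TPM summed to 39.2% of a full scale, against 63.6% to 66.7% elsewhere. SELPLG had 1.75 TPM in that library, beside 1.66 and 1.59 TPM in DMSO replicates 2 and 3, so this call is no separate support.

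**Figure D2:**
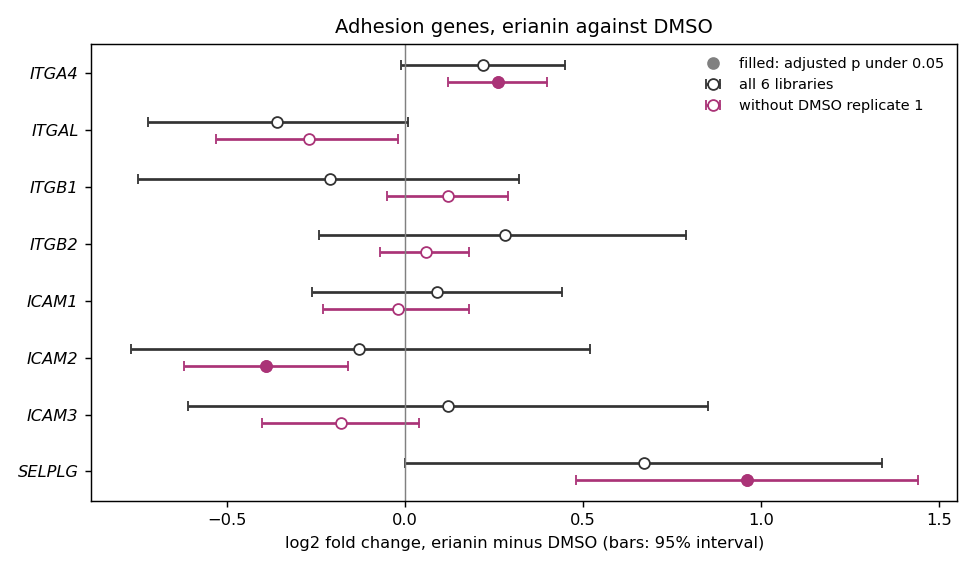
Log2 fold change of the 8 tested adhesion genes (x axis, erianin minus DMSO) with 95% intervals, for all 6 libraries (dark) and without DMSO replicate 1 (purple). Filled points have an adjusted p under 0.05. None is filled with all 6 libraries, and ITGA4 (0.26), ICAM2 (-0.39) and SELPLG (0.96) are filled without DMSO replicate 1.

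How far DMSO replicate 1 departed differed from gene to gene. It had 0.411 times the mean of DMSO replicates 2 and 3 for ICAM3, 0.481 times for ICAM2, 0.557 times for ITGB2 and 0.743 times for ICAM1. The values were above 1 for ITGA4 (1.06), ITGAL (1.15), SELPLG (1.65) and ITGB1 (1.75). On the log2 CPM scale with a prior count, 5 of the 8 genes differed more than 1.5-fold from DMSO replicates 2 and 3 in this library. Between DMSO replicates 3 and 2, 0 of 8 did. The shares over all tested genes were 33.6% and 5.5% in the same order. The low genes ICAM1, ICAM2, ITGB2 and ICAM3 have transcripts of 56.9%, 57.3%, 60% and 61.7% GC, and ITGB1 has 40%. SELPLG, at 59.4%, went the other way. The part of GC content in these values was not tested gene by gene. In edgeR's test with GC content and length offsets and all 6 libraries, 0 of 8 genes were called (adjusted p = 0.059 for ITGA4 to 0.72 for ICAM3). Of all 11404 genes tested in that fit, 2026 were called higher and 2073 lower.

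**Figure D3:**
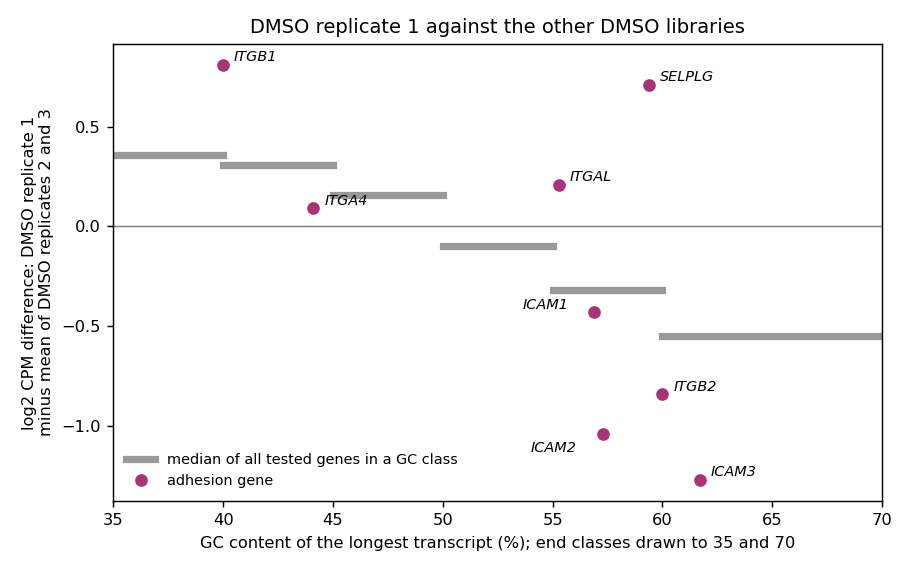
Difference between DMSO replicate 1 and the mean of DMSO replicates 2 and 3 (y axis, log2 CPM) against GC content of the longest GENCODE 29 transcript (x axis, %). Purple points are the 8 adhesion genes and grey bars are medians of all tested genes in 6 GC classes. ITGB1 (0.81) and SELPLG (0.71) lie highest and ICAM3 (-1.27) lowest, while the medians run from 0.36 to -0.55.

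On the deposited TPM, ITGB2 and ITGA4 were the highest. The lengths behind that TPM are not given and did not follow GENCODE 29. There 3 counts in DMSO replicate 2 equalled 0.0741 TPM for ICAM1, 0.0288 for ICAM2 and 0.036 for ICAM3. These genes have 3706, 3243 and 2950 exonic bases. For ITGB2 and ITGA4, 3 counts equalled 0.0129 and 0.0296 TPM, with 6797 and 7901 exonic bases. In CPM, ITGB2 stood above ITGA4 in every library. The order below holds for the deposited TPM only. ITGB2 had 28.9 to 33.1 TPM and ITGA4 25.8 to 34.1 TPM in the 5 libraries other than DMSO replicate 1, and their order changed from library to library. ICAM1 followed at 11.3 to 12.3 TPM and ITGB1 at 8.10 to 9.94 TPM in these 5. ICAM3 (4.69 to 5.27 TPM) and ICAM2 (3.44 to 5.12 TPM) came next, with ranges that overlapped. ITGAL (2.11 to 3.09 TPM) and SELPLG (1.59 to 4.31 TPM) were the lowest above the floor in 4 of these 5 libraries, whereas in erianin replicate 3 SELPLG also stood above ICAM2. On this TPM, SELPLG passed ITGAL in all 3 erianin libraries and in none of DMSO replicates 2 and 3. In CPM, SELPLG stayed below ITGAL in every library, so the crossing depends on the lengths used. In DMSO replicate 1 the deposited TPM summed to 39.2% of a full TPM scale, against 63.6% to 66.7% elsewhere, so its levels of 10.7 TPM for ITGB2 and 18.1 TPM for ITGA4 can be compared only within that library. There ITGA4 stood above ITGB2, and SELPLG above ICAM2 and ICAM3.

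Ratios within a library do not depend on its scaling. Their size does depend on the lengths behind the deposited TPM, which cancel only in the log2 differences between groups. ICAM1 and ICAM3, for example, had means of 14.4 and 13.3 CPM in DMSO replicates 2 and 3, with 3706 and 2950 exonic bases. ITGAL was a small part of its beta partner, with an ITGAL to ITGB2 TPM ratio of 0.206, 0.107 and 0.0929 with DMSO and 0.0877, 0.0665 and 0.0833 with erianin. The mean log2 ratio (erianin minus DMSO) was -0.69. The exact permutation test, two-sided, gave p = 0.1, which is the lowest value possible with 3 libraries per group, and adjusted p = 0.2 over the 4 ratios tested. It was -0.34 without DMSO replicate 1. The other alpha partners of ITGB2 were close to absent, with at most 6 counts of ITGAM, 1 of ITGAX and 1 of ITGAD in any library. ITGA4 exceeded ITGB1 1.93-, 3.18- and 3.20-fold with DMSO and 3.43-, 3.55- and 3.58-fold with erianin (log2 difference 0.38, exact permutation p = 0.1, adjusted p = 0.2). It was 0.14 without DMSO replicate 1. The ICAM1 to ICAM3 ratio was 4.02, 2.32 and 2.14 with DMSO and 2.34, 2.50 and 2.61 with erianin (log2 difference -0.13, exact permutation p = 1.0). That difference turned to 0.16 without DMSO replicate 1. For ICAM2 to ICAM3 it was 1.07, 0.854 and 0.972 with DMSO and 0.785, 0.734 and 0.855 with erianin (log2 difference -0.28, exact permutation p = 0.2, adjusted p = 0.267), and -0.21 was the log2 difference without DMSO replicate 1. Ratios with ITGB7 were not computed because its counts were at or near the floor.

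The genes whose log2 CPM over the 6 libraries was most like each adhesion gene were sought among 7878 or 7879 tested genes of at least 10 CPM. ITGA4 was most like INTS12 (Pearson r 0.996) and AIMP1 (0.991), and ITGAL most like DDX19B (0.980) and NHP2 (0.969). For ITGB1 they were ZBTB24 and CCDC77 (0.997 each), and for ITGB2 ESRRA (1.0) and PUS1 (0.999). ICAM1 was followed by ACOX3 (0.998) and DDX28 (0.995), ICAM2 by AGTRAP (0.996) and HLA-DOA (0.992), and ICAM3 by TRAPPC6A and RPL10 (0.999 each). SELPLG was most like KDM2B (0.999) and SEC16A (0.992). The 6 points share DMSO replicate 1, and 330 to 550 genes had an r above 0.95 with each of ITGB1, ITGB2, ICAM1, ICAM2 and ICAM3, against 158 for ITGA4, 14 for SELPLG and 8 for ITGAL. Between the adhesion genes themselves ITGB2 and ICAM1 had an r of 0.962 over 6 libraries and 0.348 over the 5 without DMSO replicate 1, while ICAM2 and ICAM3 had 0.917 and 0.942.

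Of the 21 other integrin subunit genes, 7 had enough reads for the test, 2 rose, 0 fell and 5 were not called (28.6% of those tested, against 24.2% of all tested genes, median log2 fold change 0.52). ITGA10, a collagen receptor subunit, rose from 1.38 ± 0.181 to 2.83 ± 0.295 CPM (1.04 ± 0.19, adjusted p = 0.010). ITGA7, a laminin receptor subunit, rose from 2.12 ± 0.709 to 4.21 ± 0.597 CPM (0.99 ± 0.27, adjusted p = 0.036). ITGA10 lost its call without erianin replicate 1 (adjusted p = 0.051), and ITGA7 without DMSO replicate 3 or any erianin library (0.071 to 0.13). ITGAE, the alpha subunit known to pair with ITGB7, was the most abundant of these genes at 14.0 to 17.2 TPM outside DMSO replicate 1 and was not called (adjusted p = 0.39). VCAM1, a ligand of ITGA4 with ITGB1, was listed at 0 in all 6 libraries.

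Of 20 tested genes that switch integrins on or off, 2 rose, 3 fell and 15 were not called (25.0%, close to the 24.2% of all tested genes, median 0.05). TLN2, 1 of the 2 talin genes, fell from 47.3 ± 2.77 to 21.5 ± 1.03 CPM (-1.14 ± 0.10, adjusted p = 0.0013). TLN1, the other talin gene, at 531 ± 81.4 and 484 ± 27.6 CPM, was not called (adjusted p = 0.51). Nor was FERMT3, the leukocyte kindlin gene, at 315 ± 88.8 and 393 ± 36.9 CPM (adjusted p = 0.31). RAPGEF1, an exchange factor for the GTPase RAP1, fell from 579.7 ± 9.58 to 354 ± 9.09 CPM (-0.71 ± 0.09, adjusted p = 0.0032). CRK, the adaptor that binds RAPGEF1, rose from 31.7 ± 3.62 to 56.8 ± 3.51 CPM (0.84 ± 0.12, adjusted p = 0.0046). Named after their values were seen, CYTH1, a cytohesin that binds the ITGB2 tail, fell (-0.54, adjusted p = 0.0075), and FLNA, which encodes filamin A, rose (0.97, adjusted p = 0.014). CYTH1 was not called without erianin replicate 1 or 2 (0.058 to 0.065), nor FLNA without any erianin library (0.057 to 0.068).

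Of 24 tested genes that link integrins to kinases and actin, 3 rose, 4 fell and 17 were not called (29.2% against 24.2% of all tested genes, median -0.07). ZYX, which encodes the focal adhesion protein zyxin, rose from 7.78 ± 1.07 to 24.6 ± 0.834 CPM (1.66 ± 0.14, adjusted p = 0.00099). VASP, which promotes actin filament growth, rose from 35.4 ± 8.26 to 103.9 ± 8.57 CPM (1.55 ± 0.18, adjusted p = 0.0028). PTK2B, the focal adhesion kinase relative PYK2, fell from 95.8 ± 11.1 to 59.2 ± 2.78 CPM (-0.69 ± 0.12, adjusted p = 0.0080). Its call was lost when erianin replicate 1 or 2 was left out (0.057 to 0.060). Named after their values were seen, VCL (vinculin) rose (0.59, adjusted p = 0.015), and the adaptor genes TNS3 (-1.0, adjusted p = 0.0090) and NEDD9 (-0.76, adjusted p = 0.019) and the RAC activator gene DOCK2 (-0.39, adjusted p = 0.030) fell. These 4 lost their calls when certain single libraries were left out. The adjusted p was 0.051 to 0.058 for TNS3 (erianin replicate 1 or 2) and 0.065 to 0.097 for NEDD9 (any erianin library). It was 0.052 to 0.079 for VCL and 0.051 to 0.15 for DOCK2 (any library but DMSO replicate 1). DOCK2 was not called with upper-quartile (0.055) or total-count scaling (0.094) either. VCL shares 11.1% of its exonic bases with AP3M1 on the opposite strand, which had 2018 to 3960 counts.

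PSGL-1 binds selectins through fucosylated, sialylated sugars and tyrosine sulfates. Of 11 tested genes of that modification, 4 rose, 1 fell and 6 were not called (45.5% against 24.2% of all tested genes, median 0.24). Without DMSO replicate 1 the share called was 72.7%, against 55.3% of all tested genes. FUT7, the fucosyltransferase that completes the selectin-binding sugar, had 1.90, 4.90 and 4.18 CPM with DMSO and 13.7, 13.7 and 17.2 CPM with erianin. The groups were far apart. FUT7 rose by 2.02 ± 0.32 on the log2 scale, adjusted p = 0.0060, and by 1.73 ± 0.14 without DMSO replicate 1, adjusted p = 1.4e-10. A second protein-coding gene model on the same strand shares 27.6% of its exonic bases and an antisense gene 39.2%, so its counts are uncertain to that extent. B4GALT1, a galactosyltransferase gene, fell from 98.4 ± 15.7 to 52.9 ± 3.17 CPM (-0.90 ± 0.14, adjusted p = 0.0055). TPST2, a tyrosine sulfotransferase gene, rose from 9.08 ± 1.25 to 13.7 ± 1.04 CPM (0.59 ± 0.14, adjusted p = 0.026). That call was lost when DMSO replicate 2 or any erianin library was left out (0.072 to 0.10). Named after their values were seen, TPST1, the other tyrosine sulfotransferase gene (0.48, adjusted p = 0.043), and C1GALT1C1, the chaperone of core 1 galactosyltransferase (0.63, adjusted p = 0.031), rose too. For C1GALT1C1 the same libraries ended the call (0.069 to 0.13), and for TPST1 each of the 5 other than DMSO replicate 1 did (0.078 to 0.16). TPST1 was also not called with no filter (0.071). GCNT1, which builds the branched sugar core, had 0, 1 and 0 counts with DMSO and 8, 11 and 8 with erianin, too few for the test.

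Of 20 tested genes for other adhesion receptors and ligands of lymphocytes, 1 rose, 2 fell and 17 were not called (15.0% against 24.2% of all tested genes, median 0.08). The share was 50% without DMSO replicate 1, against 55.3% of all tested genes. SLAMF6, a self-binding receptor, had 45.7, 23.8 and 22.3 CPM with DMSO and 13.2, 13.3 and 10.6 CPM with erianin, so DMSO replicate 1 was the highest. It fell by 1.31 ± 0.29, adjusted p = 0.017, and by 0.89 ± 0.10 without DMSO replicate 1, adjusted p = 9.9e-08. CD58, the ligand of CD2, fell from 19.7 ± 5.75 to 12 ± 1.24 CPM (-0.72 ± 0.21, adjusted p = 0.046), and by 0.45 without DMSO replicate 1. JAM3, a junctional adhesion molecule, rose from 1.81 ± 0.488 to 3.37 ± 0.258 CPM (0.90 ± 0.23, adjusted p = 0.030). JAM3 shares 8.5% of its exonic bases with NCAPD3 on the opposite strand, which had 6956 to 12803 counts. Leaving out any erianin library ended the call of SLAMF6 (0.072 to 0.085), and so did that or leaving out DMSO replicate 3 for CD58 (0.064 to 0.16). CD58 also lost its call with upper-quartile (0.059) and total-count scaling (0.088), the filter of 1 CPM (0.051) and limma-voom (0.056). JAM3 lost its call with each library left out but DMSO replicate 1 (0.060 to 0.12). ICAM5, which neighbours ICAM1, was not called, at 11.8 ± 1.84 and 12.5 ± 1.35 CPM (adjusted p = 0.75), and ICAM4 was listed at 0.

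ERM proteins tie PSGL-1 and ICAM tails to actin. Of 7 tested genes for ERM proteins, their kinases and partners, 0 were called with all 6 libraries in edgeR's test (against 24.2% of all tested genes, median -0.18). Without DMSO replicate 1, the ERM genes MSN (0.50, adjusted p = 9.3e-08) and EZR (0.35, adjusted p = 1.8e-05) rose and the related gene NF2 fell (-0.31, adjusted p = 0.0024), 42.9% of the 7 against 55.3% of all tested genes in that fit. Among 13 tested tetraspanin genes, whose proteins gather integrins in the membrane, 2 rose and 0 fell (15.4% against 24.2% of all tested genes, median 0.23). CD53 rose from 107.9 ± 9.91 to 142 ± 3.43 CPM (0.40 ± 0.11, adjusted p = 0.033) and CD82 from 91.2 ± 27.1 to 158 ± 2.79 CPM (0.80 ± 0.22, adjusted p = 0.036). Among 5 tested genes of membrane proteases of the ADAM family, 2 rose and 0 fell (40% against 24.2% of all tested genes, median 0.02). ADAM8 rose from 1.03 ± 0.122 to 2.14 ± 0.301 CPM (1.05 ± 0.21, adjusted p = 0.013) and ADAM15 from 47.3 ± 18.2 to 96.4 ± 6.80 CPM (1.03 ± 0.28, adjusted p = 0.037). CD53 lost its call with each library left out but DMSO replicate 1 (0.058 to 0.14) and with no filter (0.055). Leaving out any erianin library ended the calls of CD82 (0.11 to 0.12) and ADAM8 (0.054 to 0.056), and for ADAM15 so did leaving out DMSO replicate 3 (0.051 to 0.13).

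Among these 26 called genes of the surrounding lists, 7 were called whichever single library was left out, namely TLN2, RAPGEF1, CRK, ZYX, VASP, B4GALT1 and FUT7. CRK, ZYX, VASP, B4GALT1 and FUT7 were also called in every other setting that was run. On both log2 TPM scales 10 of the 26 were called, these 5 with ITGA10, VCL, SLAMF6, JAM3 and ADAM8. TLN2 (adjusted p = 0.060 to 0.063) and RAPGEF1 (0.18 to 0.19) were not called on those scales. There the median log2 fold change of all genes was 0.20 and 0.28, and 84.3% and 83.8% of calls were higher. Why these 2 calls were lost was not tested.

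**Figure D4:**
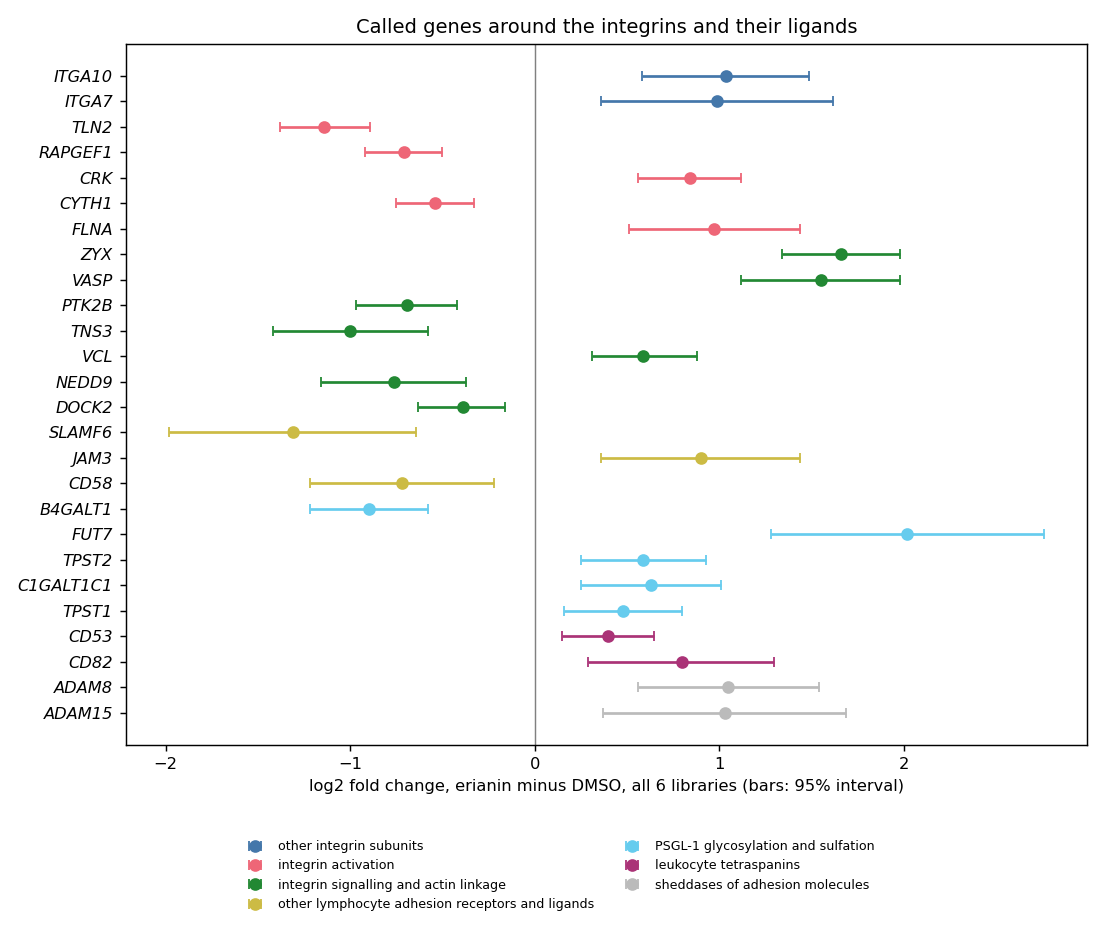
Log2 fold change (x axis, erianin minus DMSO, all 6 libraries) with 95% intervals for the 26 called genes of 7 of the 8 surrounding gene lists, coloured by list, the ERM list having none. FUT7 (2.02), ZYX (1.66) and VASP (1.55) lie farthest to the right, and SLAMF6 (-1.31), TLN2 (-1.14) and TNS3 (-1.0) farthest to the left.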

How the data were processed

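Read counts, deposited by the authors as whole numbers for each gene, came with TPM for the same genes. StringTie 2.2.1, featureCounts 2.0.1, STAR 2.7.10, fastp 0.23.2 and GRCh38 (hg38) are listed in the submitters' processing notes, without roles. Not given in the sources used here: annotation release, strand handling and multi-mapping. Genes that overlap or are near-identical may have had reads split or merged. Groups and replicate numbers came from sample titles. After 61 repeated symbols were left out, 65746 stayed, none unnamed. In the TPM table, 7 symbols differed and were taken from the count table. The deposited TPM equalled count over a fixed length times a factor per library (largest log deviation 5.2e-05 in 9485 genes).

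The test was edgeR 4.0.16's two-sided quasi-likelihood F test (R 4.3.3) on counts with TMM scaling and filterByExpr, which kept 11550 genes. Treatment was the single term. Adjusted p-values are Benjamini-Hochberg values over all tested genes, called at 0.05. SE is the absolute log2 fold change divided by the root of F, and 95% intervals use the fit's degrees of freedom. The fit was tested on simulated counts. Intervals and floors cover counting error or library spread only.

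The 9 genes, the 8 surrounding lists and the alternatives were chosen with earlier results of these data known. Named genes were the 9, up to 3 called genes with the smallest p per list, and 2 like genes per tested gene. Alternatives were RLE, upper-quartile and total-count scaling, no filter, a filter of 1 CPM in 3 libraries, DESeq2 1.42.0, limma 3.58.1 (voom, voom with quality weights, and trend on log2 of TPM + 1 and + 0.1), a replicate block, GC content and length offsets (mgcv 1.9.3) with and without DMSO replicate 1, and each library left out. Positions, GC content and overlaps came from GENCODE 29 by Ensembl identifier, whose release may differ from the one used for counting. Python 3.11.15, pandas 2.3.3, scipy 1.17.1 and matplotlib 3.10.9 made tables, permutation tests and plots.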

Additional observations from a re-analysis of the deposited data

How the results depend on the processing

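With 1 library left out, 0 to 2 of the 8 tested adhesion genes were called higher and 0 to 1 lower, the nonzero counts all without DMSO replicate 1. Over all genes these settings gave 407 to 3278 higher and 338 to 3227 lower calls, the largest without DMSO replicate 1 and the smallest without erianin replicate 2. With sample quality weights in limma-voom, 2 adhesion genes were higher and 2 lower, with 3699 and 3709 calls over all genes. Offsets with DMSO replicate 1 left out gave 3 and 1, with 3610 and 3636 over all genes. On the log2(TPM + 1) and log2(TPM + 0.1) scales 1 adhesion gene was higher. Over all genes 1408 and 1263 were higher there, and 262 and 245 were lower. These scales moved the median of all genes to 0.20 and 0.28, and total counts alone moved it to 0.11, with 919 genes lower. Of all calls, 49.0% were higher in the reported fit, 61.7% with upper-quartile scaling, 66.7% with total counts and 84.3% and 83.8% on the TPM scales.

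Of 152 alternative values for the adhesion genes, 126 kept direction and side of the threshold, 13 gained a call and 13 turned sign, all 13 without a call. ITGB1 turned to 0.14 (quality weights), 0.10 and 0.11 (TPM + 1 and + 0.1), 0.12 (without DMSO replicate 1) and 0.02 (offsets with it left out). ICAM1 turned to -0.06 (quality weights) and -0.02 (without DMSO replicate 1). ICAM2 turned to 0.13 and 0.21 (TPM scales) and 0.11 (without DMSO replicate 3). ICAM3 turned to -0.17 (quality weights), -0.18 (without DMSO replicate 1) and -0.09 (offsets with it left out). With 1 library left out the values ran from -0.36 to 0.12 for ITGB1, -0.02 to 0.18 for ICAM1, -0.39 to 0.11 for ICAM2 and -0.18 to 0.32 for ICAM3. The cause was not tested. DOCK2 and CD58 lost their calls with upper-quartile and total-count scaling and on the TPM scales, and CD58 also with the filter of 1 CPM and limma-voom. With quality weights ITGA4, ITGAL, ICAM2 and SELPLG were called.

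Of the 26 called genes of the other lists, 7 were called without any 1 library, 10 on either TPM scale and all 26 with RLE factors, DESeq2, quality weights, either offset setting and without DMSO replicate 1. Same-numbered libraries deviated together for replicates 1 (r = 0.167) and 3 (0.231) but not 2 (-0.143). Some differently numbered libraries did so as much. These were DMSO replicate 1 with erianin replicate 2 (0.172) and DMSO replicate 2 with erianin replicate 3 (0.248). The other differently numbered pairs had r from -0.291 to -0.129. The numbers were therefore not taken as pairs. The replicate block called 0 of 8 adhesion genes and, over all genes, 1139 higher and 1157 lower, and kept 22 of the 26. DOCK2, C1GALT1C1, TPST1 and CD53 were not called with it. For the ratios, leaving out DMSO replicate 1 moved the log2 difference from 0.38 to 0.14 for ITGA4 to ITGB1 and from -0.69 to -0.34 for ITGAL to ITGB2, and turned that for ICAM1 to ICAM3 from -0.13 to 0.16. That library also widens the DMSO spread of these ratios. Depth limits SELPLG, at 60 to 161 counts, and ITGB7 most.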
